A study of Mus musculus with 5 samples.

Results

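Chromosome 6 of the mouse carried fewer peaks of acetylated histone H3 and of the nuclear receptor TLX in brain tumour stem cells (BTSC) than in neural stem cells (NSC), relative to the other autosomes. The set described here is every peak on that chromosome in 4 deposited peak lists: 1997 H3K27ac peaks in NSC, 1609 H3K27ac peaks in BTSC, 769 TLX peaks in NSC and 75 TLX peaks in BTSC, together 4450 of the 71757 peaks in those lists. The chromosome was chosen because of this deficit of BTSC peaks, so the numbers of peaks by culture are given as a description and support nothing further. Both cultures are mouse cells grown in vitro, and chromatin was profiled by immunoprecipitation and paired-end sequencing with 1 library per group. The TLX libraries came from NSC and from BTSC into which TLX-3xTY1, a TLX bearing a TY1 tag, had been brought by retrovirus under selection, and the TY1 antibody was used. The labels' growth protocol describes that transduction for primary NSC only. The H3K27ac libraries came from NSC and BTSC that were not transduced, so the mark and the receptor were measured in different cells. The remaining sample, a control without antibody from a culture with the empty vector MSCV-neo and no stated cell type, was not analysed here. No precipitation with the TY1 antibody from cells without the tag is among the samples, so signal of that antibody unrelated to TLX cannot be told apart from TLX.

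TLX, the product of Nr2e1, is an orphan nuclear receptor that binds DNA as a transcription factor and is known for keeping neural stem cells in a self-renewing state. Acetylation of lysine 27 of histone H3 (H3K27ac) marks promoters and enhancers in use. TLX contacts DNA through the half-site AAGTCA, often at such regulatory regions.

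Each peak is an interval in which the authors' peak caller found more reads than its local background, and a peak that is missing from a list was not called in that library, which does not show that the protein or mark was absent. Whether each library was called against a control of its own culture is not known, so folds and backgrounds can carry differences between chromosomes of that control. The sources used here give no read numbers, and the depth of each library is unknown. The whole lists hold 31266 and 31597 H3K27ac peaks, close in number, and 7458 and 1436 TLX peaks, far apart in number, so a TLX count in BTSC is read only against the same ratio on other autosomes. The reference called elsewhere or other autosomes is the 17 autosomes left after setting aside chromosome 6 and also chromosome 1, on which BTSC had 1.35 H3K27ac peaks per NSC peak. Shares of genes or promoters called a background are over all autosomes and include chromosomes 1 and 6. With 1 library per group no difference has a replicate check, no test between groups was made, and all 95% intervals (exact Clopper-Pearson for shares, exact conditional binomial for ratios) cover counting error only. Each culture was profiled in bulk, so fewer cells with a mark and less of the mark per cell cannot be told apart. Peak lists give no expression, and the labelled cell types were not checked against marker genes here.

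Stretches of 120 bases before the start of 6 genes show what DNA lay under TLX peaks at promoters of the chromosome, chosen to include genes with peaks in both lists or in NSC alone and with or without the half-site. They are RefSeq sequence of GRCm38.p6, the assembly of mm10, printed 5′ to 3′ on the strand of the gene, and capitals mark AAGTCA.
D6Wsu163e, chr6:126939846-126939965 (+ strand), TLX in both lists: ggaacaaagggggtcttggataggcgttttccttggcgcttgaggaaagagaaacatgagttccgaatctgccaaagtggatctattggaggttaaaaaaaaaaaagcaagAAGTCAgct
Smyd5, chr6:85431828-85431947 (+ strand), TLX in both lists: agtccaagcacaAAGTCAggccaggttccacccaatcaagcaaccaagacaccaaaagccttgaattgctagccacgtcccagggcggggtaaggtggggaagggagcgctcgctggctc
Rpia, chr6:70792221-70792340 (- strand), TLX in both lists: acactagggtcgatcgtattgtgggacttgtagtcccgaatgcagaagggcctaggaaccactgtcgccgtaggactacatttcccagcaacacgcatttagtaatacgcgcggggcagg
Snrnp27, chr6:86684544-86684663 (- strand), TLX in the NSC list only: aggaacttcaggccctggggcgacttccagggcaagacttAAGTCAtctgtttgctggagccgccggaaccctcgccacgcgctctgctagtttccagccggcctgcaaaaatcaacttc
Wbp1, chr6:83121592-83121711 (- strand), TLX in the NSC list only: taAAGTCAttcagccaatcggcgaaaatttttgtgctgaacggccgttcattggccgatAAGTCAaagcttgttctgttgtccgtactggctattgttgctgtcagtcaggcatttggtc
Chn2, chr6:54039795-54039914 (+ strand), TLX in the NSC list only: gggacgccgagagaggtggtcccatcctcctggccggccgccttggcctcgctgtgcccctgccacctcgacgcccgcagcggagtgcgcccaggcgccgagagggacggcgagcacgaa

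In NSC the TLX peak before D6Wsu163e had a fold enrichment over background of 15.7 and a pileup (the caller's height at the summit, solved from fold and p) of 96, and the BTSC peak there had a fold of 5.72 and a pileup of 24. At Smyd5, which encodes a SET and MYND domain methyltransferase, the higher values were in BTSC, with a fold of 4.59 and a pileup of 38 in NSC against 7.50 and 42 in BTSC. The NSC summit lay in the stretch shown, while the BTSC summit lay 95 bp inside the gene. Before Rpia, which encodes an enzyme of the pentose phosphate pathway and whose stretch holds no AAGTCA, the folds were 11.9 and 6.16 with pileups of 61 and 26. So a promoter with 2 TLX calls could carry the half-site or lack it. Among promoters called in NSC alone, Snrnp27, a spliceosome component, had a fold of 5.55 with a pileup of 28. Wbp1, which encodes a WW domain binding protein, had 2 copies of the half-site in its stretch, a fold of 4.39 and a pileup of 23, and Chn2, a Rac GTPase-activating protein, had none, a fold of 6.88 and a pileup of 35.

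Over all promoter windows of the chromosome (300 bases, from 250 before to 50 after a gene start, 1164 windows of 952 genes) AAGTCA or its reverse complement TGACTT occurred in 160, or 13.7% (95% interval 11.8 to 15.9), against 13.2% of the 20085 windows of all autosomes. It was in 4 of 19 windows with TLX in both lists, 21.1% (6.05 to 45.6), in 23 of 249 with TLX in NSC only, 9.24% (5.95 to 13.5), and in 133 of 896 with neither, 14.8% (12.6 to 17.3). The promoters bound in NSC only thus held these letters no more often than promoters in general. A match is a description of letters, not a shown binding site.

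BTSC had 0.806 H3K27ac peaks per NSC peak on chromosome 6 (95% interval 0.754 to 0.861), while the 17 other autosomes together had 1.00 (0.983 to 1.02) and ranged from 0.935 on chromosome 12 to 1.05 on chromosome 7. In base pairs covered the difference was similar, with 4723126 bp in NSC and 3725755 bp in BTSC, a ratio of 0.789 against 1.06 elsewhere. For TLX the ratio was 0.0975 (0.0759 to 0.124) against 0.171 (0.160 to 0.183), with the other autosomes between 0.130 on chromosome 12 and 0.223 on chromosome 16. The NSC count of 769 TLX peaks was the highest of the autosomes, above the 571 of chromosome 2, the next highest. Set against the mark, NSC had 38.5 TLX peaks per 100 H3K27ac peaks on chromosome 6 and 23.3 elsewhere (20.1 to 25.8 by autosome), while BTSC had 4.66 and 3.98 (3.32 to 4.71). Chromosome 6 therefore stood apart in NSC on this count, and in BTSC it lay within the range of the other autosomes.

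**Figure D1:**
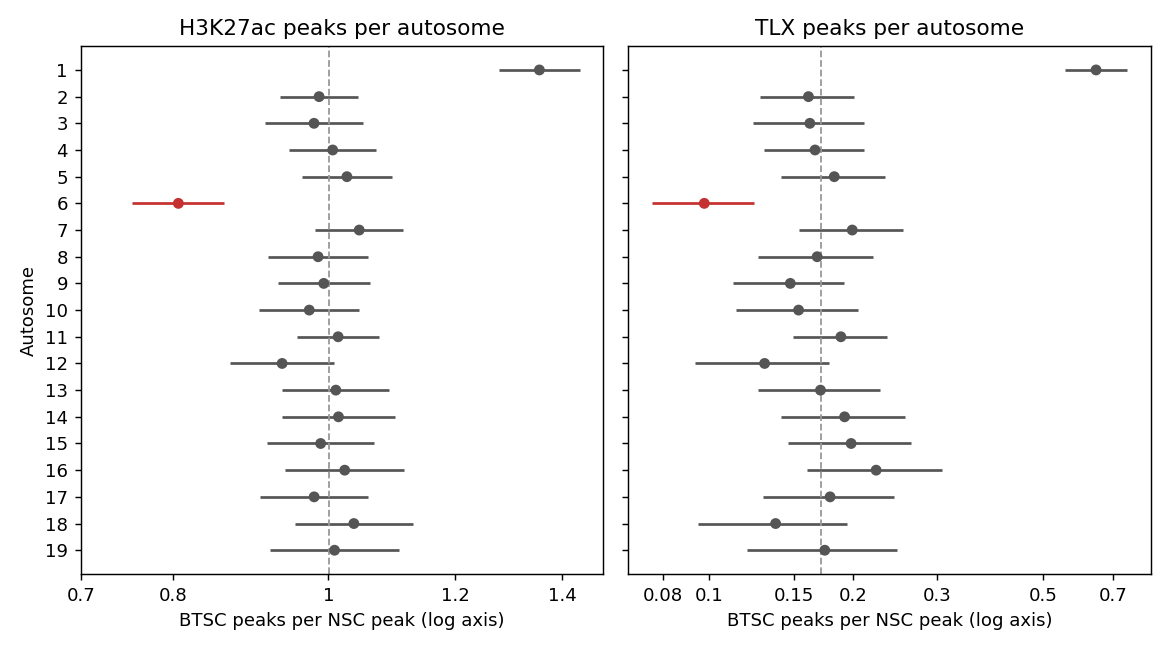
BTSC peaks per NSC peak on each autosome (log axis) for H3K27ac (left) and TLX (right), with 95% counting intervals as lines and the pooled ratio of the 17 other autosomes (1.00 and 0.171) as a dashed line. Chromosome 6, in red, lies lowest in both panels at 0.806 and 0.0975, and chromosome 1 lies highest.

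The local background of TLX peaks was more often above its lowest value on chromosome 6 than on the 17 other autosomes, and on chromosome 1 it was so more often still (64.2% of NSC peaks and 71.7% of BTSC peaks). Solved from each peak's fold and p, the background lay above the lowest value of its list for 295 of 769 NSC peaks, 38.4% (34.9 to 41.9), against 21.6% over the 17 autosomes (15.8 to 25.7 by autosome), and for 35 of 75 BTSC peaks, 46.7% (35.1 to 58.6), against 24.5% (18.1 to 32.7). This held in both cultures. Most peaks of chromosome 6 and of those 17 autosomes lay at the lowest value of their list. Their median backgrounds were therefore that value and could not differ. The part of the raised background in the peak numbers was not tested.

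Along the chromosome the NSC excess was spread out, and its size varied by window. Of 30 windows of 5 Mb, 7 had an NSC excess of H3K27ac, meaning fewer than 2 BTSC peaks for every 3 NSC peaks, which is 23.3% of them against 3.56% of the 421 windows of other autosomes. None had a BTSC excess (over 1.5), against 0.238% elsewhere, and 23 were level by this rule. The median ratio over the windows was 0.792 against 1.00 elsewhere, and 26 of 30 lay below 1 (86.7% against 47.0%). Thus most windows called level still leaned to NSC. The count moved with the peaks taken and with window size. With a −log10 q of at least 5, 1 of 29 windows had an NSC excess (3.45%, against 1.69% elsewhere), with windows of 10 Mb 1 of 15 (6.67% against 1.38%), and with windows of 2 Mb 11 of 65 (16.9% against 6.59%).

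The 7 windows with an NSC excess lay at 10 to 15 Mb (37 NSC and 24 BTSC peaks), 20 to 25 Mb (66 and 42), 60 to 65 Mb (15 and 9), 75 to 80 Mb (15 and 8), 105 to 110 Mb (39 and 22), 130 to 135 Mb (45 and 28) and 135 to 140 Mb (81 and 41). The first window of the chromosome, with 18 and 12 peaks, sat exactly on that ratio of 2 to 3 and counts as level. The lowest ratio was at 135 to 140 Mb, 0.506 (0.339 to 0.746), where the excess of 40 peaks was also the highest in number. There 46 of the 81 NSC peaks had no BTSC peak over them, and 20 TLX peaks in NSC faced 1 in BTSC. The interval lay below 1 at 20 to 25, 105 to 110 and 135 to 140 Mb and included 1 in the other 4 of these windows, of which those at 60 to 65 and 75 to 80 Mb held the fewest peaks.

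Windows that stayed level with more BTSC than NSC peaks lay at 25 to 30 Mb (58 NSC and 67 BTSC peaks), 70 to 75 Mb (67 and 70), 95 to 100 Mb (56 and 57) and 120 to 125 Mb (80 and 84). TLX peaks there numbered 20, 32, 26 and 27 in NSC and 3, 7, 4 and 4 in BTSC. Those ratios of 0.150, 0.219, 0.154 and 0.148 lay around the 0.171 of the other autosomes. NSC had more TLX peaks than BTSC in each of the 30 windows, an outcome that the far longer NSC list leaves nearly fixed. Relative to H3K27ac, the NSC TLX peaks per 100 peaks ranged from 20 to 61.4 with a median of 37.2, and 29 of 30 windows were above the median of 23.0 of windows elsewhere. In BTSC the medians were 3.81 and 3.57. The surplus of NSC TLX peaks per H3K27ac peak was therefore found along nearly the whole chromosome. H3K27ac too leaned to NSC in 26 of 30 windows, with ratios from 0.506 to 1.16. Every window's interval except that at 135 to 140 Mb (0.339 to 0.746) included the chromosome's 0.806. Differences in H3K27ac ratio among the other windows can thus not be told from counting error.

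**Figure D2:**
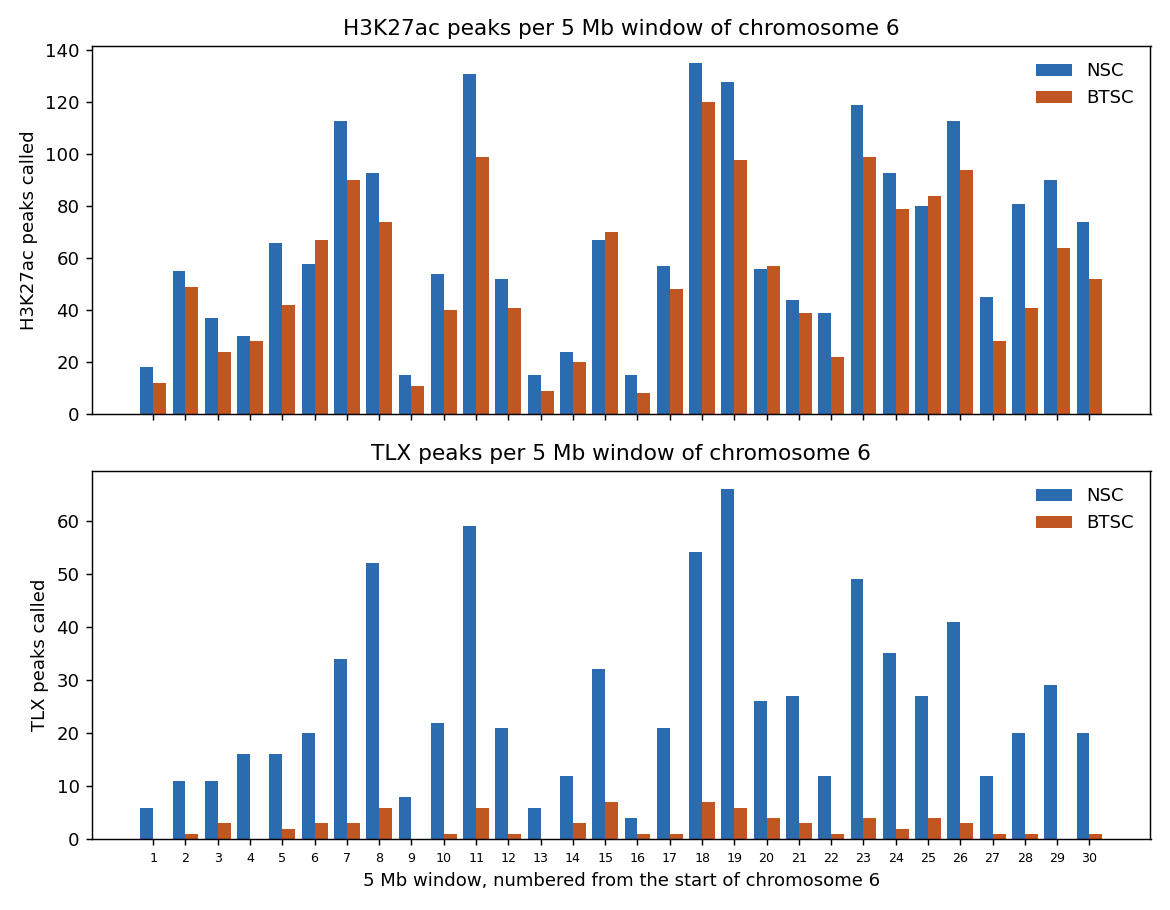
H3K27ac peaks (top) and TLX peaks (bottom) called in each 5 Mb window of chromosome 6, numbered from its start, with NSC in blue and BTSC in orange. For H3K27ac the bars are near each other in windows 6, 15, 20 and 25 and farthest apart in ratio in window 28, and for TLX the NSC bar is the taller in each window.

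The last 4 windows, 130 to 150 Mb, were singled out after their values were seen. They held 290 H3K27ac peaks in NSC and 185 in BTSC, a ratio of 0.638 (0.528 to 0.770), and covered base pairs stood at 0.541. The 26 windows before them held 1707 and 1424, a ratio of 0.834 (0.777 to 0.896), so the NSC excess was there without the end of the chromosome. TLX peaks in the last 4 windows numbered 81 in NSC and 3 in BTSC, against 688 and 72 before them. Yet NSC TLX peaks per 100 H3K27ac peaks were fewer in the last 4 windows, 27.9, than in the others, 40.3. The end of the chromosome thus had the lower acetylation ratio and also the fewer NSC TLX peaks per H3K27ac peak.

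The H3K27ac deficit came both from peaks missing in BTSC and from narrower shared peaks. Of the NSC peaks, 649 had no BTSC peak over them, 32.5% (30.4 to 34.6) against 20.9% elsewhere, and of the BTSC peaks 264 had no NSC peak, 16.4% (14.6 to 18.3) against 22.1%. Among 1261 peaks that matched one to one, the NSC peak was the wider in 816, 64.7% (62.0 to 67.4) against 47.3% elsewhere. In NSC the median width of these pairs was 1910 bp (1740 bp on other autosomes), and in BTSC it was 1631 bp (1762 bp). Of the 997371 bp by which NSC exceeded BTSC, 517152 bp lay in peaks called in one list and 480219 bp in shared peaks. In this raw difference both sources counted about equally. On the 17 other autosomes together the same differences were -637643 bp and -3098399 bp, so the split is not one relative to them.

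H3K27ac peaks called in NSC alone were mostly weak and away from gene ends. Only 38 of the 649 (5.86%) lay within 1 kb of a gene end, 53.6% were inside genes and 40.5% between them, close to the pattern elsewhere (7.65%, 47.5% and 44.9%). With the whole NSC list ordered by the authors' q and divided into 10 bins of equal size, 1 of 251 chromosome 6 peaks in the strongest bin was missing in BTSC (0.398%) and 201 of 292 in the weakest (68.8%, against 56.0% elsewhere). Chromosome 6 supplied 8.03% of the strongest bin, 4.67% of bin 3 and 9.34% of the weakest, against 6.39% of the whole list. It was thus more frequent at both ends of the NSC list than in the middle, and in BTSC it supplied 4.37% to 5.89% of the bins.

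**Figure D3:**
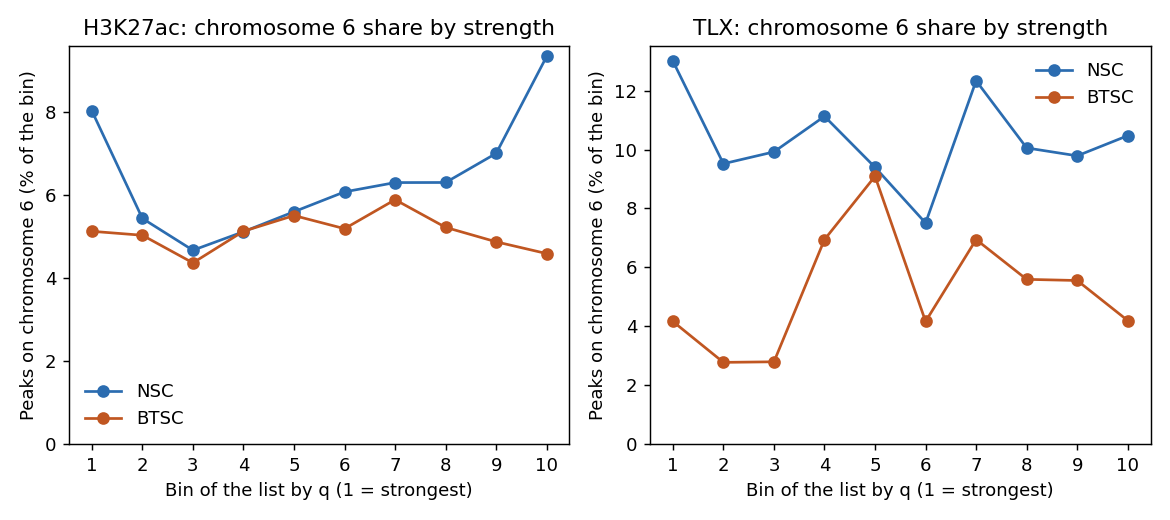
Share of peaks that lay on chromosome 6 (percent) in each of 10 equal bins of the whole list ordered by the authors' q, strongest first, for H3K27ac (left) and TLX (right), NSC in blue and BTSC in orange. In NSC the H3K27ac share is raised in the first bin (8.03%) and in the last (9.34%), while the TLX share is 13.0% in the first bin and between 7.51% and 12.3% in the others.

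TLX sites were nearly all those of NSC. Of the 75 BTSC peaks, 72 overlapped an NSC peak, 96.0% (88.8 to 99.2) against 85.4% elsewhere. Those 72 were 9.36% (7.40 to 11.6) of the NSC peaks, against 14.6% elsewhere. The 3 BTSC peaks without one lay 841616 bp from Nxph1, inside Mgll and inside Iqsec1, with folds of 4.94, 5.26 and 3.89. At the 72 shared sites the median pileup was 48 in NSC and 23 in BTSC, against 36 and 23 elsewhere, and median folds were 8.99 and 5.13 against 6.88 and 5.36. The shared sites of chromosome 6 thus had higher pileups in NSC than those of other autosomes. They are the sites that passed the BTSC call, so their equal BTSC pileups say little about the chromosome. Over all NSC TLX peaks the median pileup was 26 against 25 elsewhere, and over all BTSC TLX peaks it was 23 in both.

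TLX lay within the NSC H3K27ac regions for 695 of 769 NSC peaks, 90.4% (88.1 to 92.4) against 91.9% elsewhere, and within the BTSC regions for 68 of 75 BTSC peaks, 90.7% (81.7 to 96.2) against 92.8%. Of the NSC TLX peaks, 74 overlapped an NSC H3K27ac peak and no BTSC H3K27ac peak, 9.62% against 5.50% elsewhere. Most of the TLX found only in NSC, 558 of 697 peaks (80.1%), lay where both cultures had H3K27ac, a lower share than the 86.1% elsewhere. Seen from the mark, 41.8% (39.1 to 44.5) of shared NSC H3K27ac peaks held a TLX peak against 23.6% elsewhere, and 10.2% (7.95 to 12.8) of those called in NSC alone did against 5.45%. In BTSC the share among shared peaks was 4.68% (3.62 to 5.95) against 4.24%. Positions were close to those elsewhere, with 32.8% of NSC TLX peaks within 1 kb of a gene end, 40.1% inside genes and 27.2% between them, against 31.5%, 39.6% and 28.9%.

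Strong TLX sites of the chromosome were shared more often than weak ones. The highest by q in NSC, at 54720220 to 54721262 and 16933 bp from Mturn, which encodes a regulator of neural progenitor differentiation, had a fold of 22.8 and a pileup of 118, and the BTSC peak there a fold of 5.72. A site 17646 bp from Cpvl, a carboxypeptidase gene, had folds of 19.3 in NSC and 12.5 in BTSC, with pileups of 100 and 59, and led the BTSC peaks of the chromosome. A site inside Ctnna2, which encodes the neuronal alpha-catenin, had 18.7 and 5.49. Further sites shared by both lists lay inside Dennd2a (17.2 and 5.14), inside Tulp3, a gene of ciliary trafficking (16.8 and 8.01), and inside Ptn (14.9 and 5.72). Among the 10 strongest NSC sites, 1 was absent from the BTSC list, a second site inside Dennd2a at 39478303 to 39479315 with a fold of 16.3 and a pileup of 84.

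The strongest BTSC sites came in another order. After the site near Cpvl came one 245115 bp from Prok2, with folds of 10.1 in BTSC and 8.41 in NSC, then one 9228 bp from Aldh1l1 with 9.74 and 15.2, and one inside Tcf7l1, a transcription factor of Wnt signalling, with 9.39 and 16.3. The site nearest to Prok2, that at Smyd5 and one 26122 bp from Akr1b3 (7.55 in BTSC and 6.50 in NSC) had the higher fold in BTSC, and the other 7 of the 10 in NSC. Folds are the authors' values from lists of different backgrounds, so the lists' folds describe order within each list. The strongest NSC sites absent from BTSC, after that in Dennd2a, lay 12469 bp from Arhgap25 (14.2), inside Sumf1 (10.5), 6926 bp from Aplf (12.6), inside Antxr1 (10.7) and 122703 bp from Npvf, the nearest gene end (11.5).

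Genes differed in how much H3K27ac surrounded them, measured as covered base pairs within 25 kb of either gene end. Of 1126 protein-coding genes, 810 had any. Of these, 141 (17.4%) had more in NSC by at least 1.5-fold and 2 kb, against a background of 6.02% over all autosomes, and 35 (4.32%) had more in BTSC, against 13.8%. At any size of difference NSC was the larger for 539 (66.5%), against 41.4% elsewhere, and 155 (19.1%) were within 1.1-fold, against 24.7%. The lean to NSC was thus opposite to that of genes on other autosomes. Neighbouring genes can share 1 peak, so genes are not independent counts. With 10 kb in place of 25 kb, 85 of 724 genes had more in NSC (11.7%, background 4.26%). At 2-fold or more, 83 of 810 had more in NSC (10.2%, background 3.59%) and 18 had more in BTSC (2.22%, background 6.90%).

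The largest NSC excess was at Fbln2, encoding an extracellular matrix fibulin, with 38126 bp in NSC and 18774 bp in BTSC. Ccnd2, encoding cyclin D2 of the G1 phase, followed with 29284 and 10368 bp, and a single broad NSC peak over the gene, 25951 bp wide with a fold of 8.23, met a BTSC peak of 3553 bp with a fold of 2.55. Both genes had TLX in NSC only, with 2 and 4 peaks. Cep41, a centrosomal gene, had 27071 and 15559 bp. Ptpro, a receptor tyrosine phosphatase gene, had 14007 and 3334 bp with 4 TLX peaks in NSC and none in BTSC. Lmo3, a LIM-domain transcription cofactor gene, had 8243 bp in NSC and none called in BTSC in that span, with 2 TLX peaks in NSC alone.

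Dennd2a, a gene of Rab trafficking, had 23571 and 14127 bp with 7 TLX peaks in NSC and 1 in BTSC. Adcyap1r1, the receptor of the neuropeptide PACAP, had 26395 and 17036 bp, Ino80b, a subunit of the INO80 chromatin remodeller, 23656 and 14709 bp, and Bpgm, encoding bisphosphoglycerate mutase, 13846 and 6009 bp. Cpvl (36122 and 24686 bp), Atg7, an autophagy gene (37781 and 28279 bp), and Sh2d6 (30032 and 21625 bp) had large excesses in base pairs and fell short of 1.5-fold. So 9 of the 12 genes with the largest NSC excess passed the rule for a call.

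The 8 genes with the largest BTSC excess mostly differed by a smaller ratio. Mgll, encoding monoacylglycerol lipase, had 7105 bp in NSC and 21963 bp in BTSC, with 1 TLX peak in each list. Hoxa4 had 10720 and 17934 bp, and Irak2, a kinase of interleukin-1 signalling, 9943 and 16931 bp. Only these 3 of the 8 passed the rule. Slc6a11, which encodes a GABA transporter of astrocytes, had 39907 and 49224 bp, and 1 BTSC peak of 61813 bp there overlapped an NSC peak of 9976 bp. Aldh1l1, a folate enzyme and marker of astrocytes, had 23987 and 31865 bp, Elmod3 20611 and 28959 bp, Atp6v1e1, a subunit of the vacuolar proton pump, 18252 and 25479 bp, and Sfxn5 17406 and 23520 bp.

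Level genes included the most acetylated of the chromosome. Lrig1, which encodes a membrane protein that restrains EGF receptor signalling, had 57337 bp in NSC and 58996 bp in BTSC, and its widest peak spanned 59694 and 62872 bp. Ptn, encoding the growth factor pleiotrophin, had 40618 and 43138 bp, and its widest peak spanned 45044 and 60392 bp. Capg, an actin-capping gene, had 30390 and 29867 bp, and Lrrc4, a synaptic adhesion gene, 29516 and 27865 bp. Smaller level genes were Gnb3 (22547 and 20527 bp), Setd5 (17826 and 17420 bp), Herc3 (14274 and 13074 bp) and Zfp775 (13493 and 12307 bp). TLX peaks numbered 9 in NSC and 2 in BTSC at Lrig1, 7 and 1 at Ptn, and none in either list at Gnb3. The BTSC list is the shorter throughout, with 0.171 peaks per NSC peak on other autosomes.

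**Figure D4:**
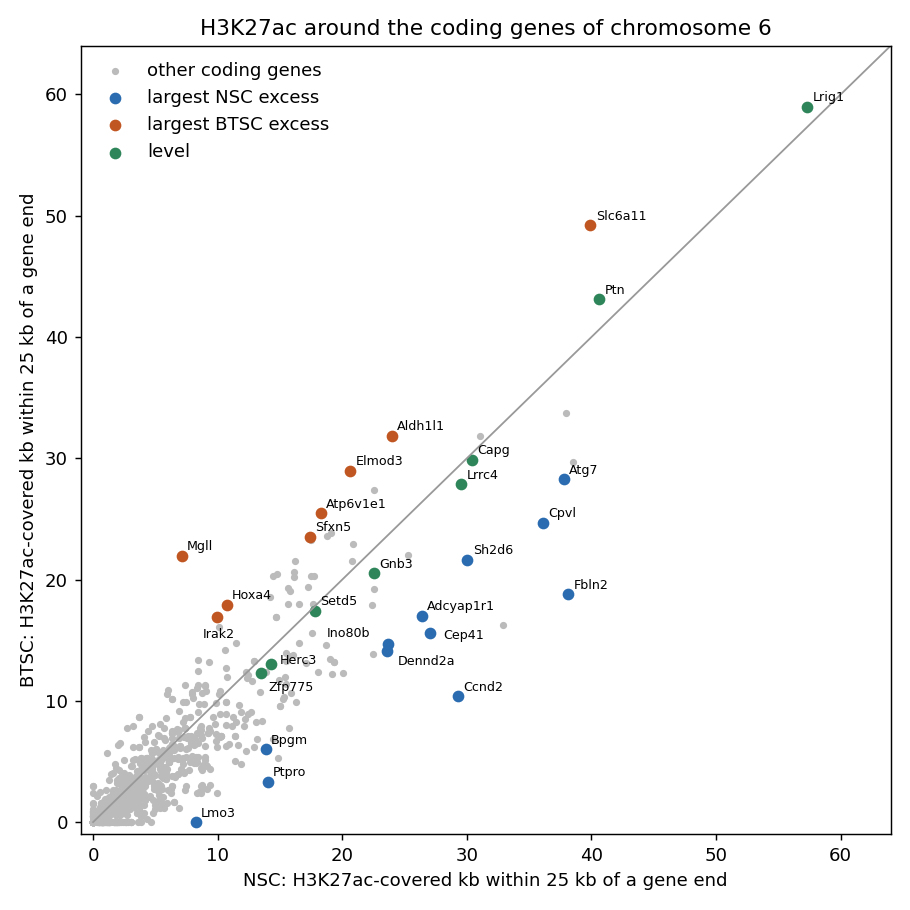
H3K27ac-covered kb within 25 kb of a gene end, NSC on the horizontal and BTSC on the vertical axis, 1 point per coding gene of chromosome 6, with equal values on the grey line. Genes of largest NSC excess (blue) lie below the line, with Ccnd2 at 29284 and 10368 bp, those of largest BTSC excess (orange) lie above it, and the level genes (green) follow it up to Lrig1.

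Genes with more H3K27ac in NSC were not evenly spread. They made up 17.4% of genes with the mark on the chromosome and 6.02% over all autosomes. Neighbouring genes can share peaks within their 25 kb margins, so runs of such genes are partly built into the measure. The windows below were named after their values were seen. At 125 to 130 Mb, 24 of 67 genes with the mark had more in NSC and 0 had more in BTSC, among them Ccnd2, Foxm1, Ing4, Kcna6 (4316 and 286 bp), Tigar (8641 and 3015 bp) and a run of lectin receptor genes from Klrb1c (9162 and 2740 bp) to Clec9a (3636 and 1088 bp). At 30 to 35 Mb, 10 of 32 had more in NSC and 1 in BTSC. From 130 Mb to the end no gene had more in BTSC, against 4.32% over the chromosome. Genes with more in NSC there included Eps8 (14822 and 5260 bp), Aebp2 (12291 and 5830 bp) and Recql (5527 and 1548 bp). The direction was mixed at 85 to 90 Mb, with 13 and 6 of 73, where the 13 were near the chromosome's share. More genes had more in BTSC than in NSC at 25 to 30 Mb (4 and 1 of 29), 70 to 75 Mb (3 and 1 of 38), 110 to 115 Mb (4 and 2 of 38) and 120 to 125 Mb (4 and 1 of 61). None of these was above the 13.8% of genes with more in BTSC over all autosomes. Only the first was above the 12.8% of the 17 other autosomes. In peak number the windows at 30 to 35, 85 to 90 and 125 to 130 Mb were level too.

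TLX at genes, counted within the gene or 10 kb of it, was found in NSC only at 416 of 1126 genes (36.9%), against a background of 21.3% of genes on all autosomes. It was in both lists at 60 (5.33%), against 4.85%, and in BTSC only at 0, against 0.556%. Genes with most NSC peaks were Creb5, a transcription factor gene, with 10 in NSC and 2 in BTSC, Lrig1 with 9 and 2, and Snd1, a nuclease-domain coactivator gene, with 8 and 3. Longer genes have more room for peaks. With the NSC list cut to as many peaks as the BTSC list, 71 genes had TLX in NSC only (6.31%, background 2.56%), and the TLX ratio of the chromosome was 0.455 against 0.890 elsewhere. TLX in NSC was at 59.6% (51.0 to 67.7) of genes with more H3K27ac in NSC, at 62.9% (44.9 to 78.5) of those with more in BTSC and at 57.9% (53.9 to 61.8) of those not called, and these intervals overlap. Elsewhere these shares were 43.7%, 34.3% and 31.8%.

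At promoters, H3K27ac covered the window in both lists for 432 of 952 genes (45.4%, background 51.2%), in NSC only for 35 (3.68%, background 2.42%) and in BTSC only for 12 (1.26%, background 1.62%). Those of NSC only included Lrrtm1, Lrrtm4, Cntn4, Cntn6 and Grm8, genes of synapses and neuronal adhesion, and also Hdac11, Cav1 and Egr4. Those of BTSC only included Pdk4, Hoxa3, Aldh1l1, Smyd5 and Nat8. These examples were picked from the counts after they were seen. TLX covered the promoter window in both lists for 18 genes (1.89%, background 1.4%), in NSC only for 213 (22.4%, background 10.7%) and in BTSC only for 0 (background 0.243%). The 18 included Lrig1, Rpia, Rtkn, Kdm3a, Mad2l1, Phb2, Emg1 and D6Wsu163e.

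By function, 9 lists of genes on the chromosome were read against all 810 of its genes with the mark, of which 141 had more in NSC and 35 more in BTSC and whose median difference, BTSC minus NSC, was -448 bp. In the neuronal and synaptic list, 7 of 23 genes with the mark had more in NSC and 1 in BTSC, with a median difference of -1577 bp. Kcnd2, a potassium channel gene, had 13590 bp in NSC and 8373 bp in BTSC, Plxna1, a semaphorin receptor gene, 13191 and 6864 bp, and Tac1, the gene of substance P, 3554 and 788 bp. The others were Kcna6, Lrrtm1, Cntn6 and Itpr1, and the gene with more in BTSC was the adhesion gene Chl1 (5334 and 8073 bp).

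In the astrocyte and transporter list, 5 of 18 had more in NSC and 1, Mgll, in BTSC, with a median difference of -1821.5 bp. Slc6a6, the taurine transporter, had 6878 and 1133 bp, Ldhb, a subunit of lactate dehydrogenase, 8645 and 2407 bp, Itpr2 8984 and 5090 bp and Mgst1 3540 and 736 bp. Among other transcription factors of neural development, 3 of 17 had more in NSC, namely Sox5 (11370 and 5069 bp), Lmo3 and Creb5 (2663 bp and none within 25 kb of its ends), and 0 in BTSC. Creb5 is a long gene, and a promoter window within it had H3K27ac in both lists. In the list of Wnt, Hedgehog and receptor signalling, 4 of 17 had more in NSC and 0 in BTSC. These were the ligand Wnt7a (32876 and 16270 bp, 2 TLX peaks in NSC and none in BTSC), which lies close to Fbln2, the coreceptor Lrp6 (4347 and 2106 bp), Tspan12 (12101 and 7953 bp) and Nup210 (8636 and 4498 bp), the last a nuclear pore gene and no signalling gene.

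Ras, Raf and cell cycle genes were mostly not called, with 2 of 15 more in NSC (Ccnd2 and Foxm1, a mitotic transcription factor with 15001 and 9577 bp) and 1 in BTSC (Vhl, 7347 and 11309 bp). Braf had 3040 and 3065 bp and Cdkn1b, an inhibitor of cyclin-dependent kinases, 16176 and 21547 bp, neither past the rule. Of chromatin genes, 2 of 16 had more in NSC, Ing4 (5512 and 2737 bp) and Hdac11 (8762 and 2767 bp), and 1 in BTSC, Suclg1 (1425 and 3963 bp), which encodes a mitochondrial enzyme and is no chromatin gene. Ezh2, the methyltransferase of Polycomb, had 3061 and 3161 bp. Housekeeping genes had 4 of 23 more in NSC and 0 in BTSC, with Gapdh at 17248 and 19388 bp. TLX was in NSC only at 20 of the 23, against 36.9% of all 1126 coding genes of the chromosome. Only 810 of those have the mark, as all 23 do. Among genes with the mark the share was 53.2% for those with more in NSC. It was 57.1% for those with more in BTSC and 50.2% for those not called. Median differences were -556 bp for the other transcription factors, -1572 bp for the signalling list, -52 bp for the Ras and cell cycle list, -129.5 bp for chromatin genes and -413 bp for housekeeping genes. In the immune receptor list, 10 of 21 had the mark, 2 with more in NSC (Klrb1c and Tril) and 0 with more in BTSC, although its median difference was 61.5 bp. The Hoxa cluster was the exception, with 0 of 11 more in NSC and 4 in BTSC (Hoxa4, Hoxa7, Hoxa9 and Hoxa10) and a median difference of 4039 bp. TLX was in NSC only at 11 of its 13 genes, against 36.9% of all coding genes of the chromosome. Among genes with the mark that share was 50.2% to 57.1%, by class. The Hoxa genes lie side by side and neighbours share peaks, so these counts describe a single locus. That list also holds the neighbours Skap2, 1 of the 11, and Evx1, which are no Hoxa genes.

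Some of the H3K27ac peaks called in 1 culture only were strong by q. In NSC alone such a peak lay 234 bp from an end of Foxp2, a forkhead transcription factor gene, at 14900154 to 14902075 (fold 12.5). Others lay 10488 bp from Klrb1c (10.5), 40004 bp from Rerg (8.92) and 3582 bp from Mest, at 30728372 to 30731476 (7.86). In BTSC alone such peaks lay 167131 bp from Klf14 (13.2), inside Vmn2r22 (9.17) and 1359 bp from Nanog, a pluripotency factor gene, at 122715092 to 122716892 (9.37).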

How the data were processed

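Per the labels' protocols, cells were fixed in 1% formaldehyde for 10 min, chromatin was sheared to about 200 bp, and 50 bp were read from either end. The build mm10 and the tools Bowtie, ChIPseeker and bcl2fastq (2.17.1.14) are named per the submitters' processing notes, and the peak caller was not given in the sources used here. For each library 1 list was deposited by the authors, with a fold enrichment (ratio) per peak. The deposited −log10 p and −log10 q values and the deposited score per peak served to rank or filter within a list. A peak counted as shared if 1 bp overlapped. TLX pileups and backgrounds were solved from (pileup + 1)/(background + 1) and a Poisson p, which gave whole pileups within 0.002 for 7455 of 7458 and 1434 of 1436 peaks. Genes and promoters were those of RefSeq GRCm38.p6. Of 1126 coding genes, 952 had a promoter window. Intervals used scipy 1.17.1, and the code was tested on simulated data.

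Genes named are the 12 of largest NSC excess, the 8 of largest BTSC excess and the 8 largest level ones at least 100 kb apart, the 10 TLX peaks of highest q, the 5 widest H3K27ac peaks per list, and list members that differ. Members, lists and rules were chosen with earlier results of these data known. Other genes were named after their values were seen. Some genes that the rule names are left out of the text, while counts include them. Alternatives were a −log10 q of at least 5, equal list lengths, joined peaks, 50% reciprocal overlap, other windows and other gene margins.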

Additional observations from a re-analysis of the deposited data

How the results depend on the processing

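No paired analysis was possible because each group has 1 library, and for the same reason no replicate could be left out. Of 43 alternative values, 25 stayed close to the main value and 18 moved. Only the H3K27ac and TLX peak ratios could count as reversed, by passing 1, and neither did. With peaks of −log10 q of at least 5 the H3K27ac ratio was 0.892 (1.01 on other autosomes), 24.3% of NSC H3K27ac peaks were missing in BTSC, 1 window had an NSC excess, and 84.4% of NSC TLX peaks lay in NSC H3K27ac. So the H3K27ac difference was smaller with the weak peaks left out. It did not shrink evenly with strength. The strongest of the 10 bins of each list held 251 NSC and 162 BTSC peaks of the chromosome. Bin 2 held 170 and 159, and bin 3 held 146 and 138. With lists cut to equal numbers, the TLX ratio was 0.455 (165 and 75 peaks, 0.890 elsewhere), 36.4% of NSC TLX peaks were called in BTSC, and 71 genes had TLX in NSC only. Under 50% reciprocal overlap the shares were 49.4% of NSC H3K27ac missing in BTSC, 5.33% of NSC TLX called in BTSC, and 14.2% of NSC TLX in H3K27ac, where the much wider broad peaks make such overlap rare. Windows of 2 Mb gave 11 with an NSC excess and windows of 10 Mb gave 1. Gene ends with 10 kb gave 85 genes with more in NSC, and a 2-fold rule gave 83 and, in BTSC, 18. Without the last 4 windows, chosen after seeing the data, 30.3% of NSC H3K27ac peaks were missing in BTSC. The share of TLX peaks above the lowest background, also added after seeing the data, was 1.78 times that of other autosomes in NSC and 1.90 times in BTSC. The medians gave 1.00 in both, as they had to with most peaks at the lowest value. Unless stated, the cause was not tested. Depth is unknown, so weak peaks called in 1 list are the least certain.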
